A study of Mus musculus with 4 samples.

Results

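Myeloid cells, here the cells that carried transcripts of both Tyrobp and Fcer1g, made up 126 of the 4618 cells kept from the cochlear libraries of embryonic day 14.5 (E14.5). A barcode was kept when it had at least 1000 detected genes and under 10% of its unique molecular identifiers (UMIs, one per captured transcript) in mitochondrial genes. A kept barcode was a member when it held at least 2 raw UMIs of Tyrobp and at least 2 of Fcer1g. Members were 45 of 1569 kept cells in replicate 1, or 2.87% (95% exact Clopper-Pearson interval 2.10% to 3.82%), and 81 of 3049 in replicate 2, or 2.66% (2.12% to 3.29%), a mean of 2.76% ± 0.150 (SD, n = 2). Such intervals cover counting error only. Throughout, pairs of values are given for replicate 1 and then replicate 2 of E14.5.

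The series profiled single cells of the developing mouse cochlear duct at E12.5 and E14.5, with 2 libraries per age made with the 10x Genomics 3′ kit of chemistry version 3. In every library the genotype was Sox2-GFP/WT, the labelled cell type was auditory cells, and the cochlea had been freed of vestibular tissue, digested and sorted for the green reporter. The reporter marks transcription of Sox2, a gene of otic and neural progenitors. The labels do not name the animals or litters behind a library, so the 2 replicates of an age may be technical, and whether embryos were pooled is not given in the sources used here.

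Tyrobp encodes DAP12 and Fcer1g encodes the common Fc receptor gamma chain, short membrane adaptors that pair with receptors lacking a signalling tail. Both carry the tyrosine motif called ITAM, which recruits the kinase Syk when a paired receptor binds its ligand, and both are used across macrophages, granulocytes, mast cells and natural killer cells. Embryonic macrophages come from the yolk sac and the fetal liver, settle in nearly every organ, clear dying cells and secrete C1q, the recognition protein of the classical complement pathway. Neutrophil granulocytes are instead packed with calprotectin, the calcium-binding pair of S100A8 and S100A9.

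The start regions of 4 genes are shown because these genes define the gate and the classes described here: Fcer1g of the gate, C1qb of macrophages, and S100a8 and S100a9 of granulocytes. Each sequence runs 5′ to 3′ on the strand of its gene, from 250 bases before to 50 bases after the start that RefSeq gives on GRCm38.p6. Capitals mark matches, on either strand, to the core AGGAAG of the myeloid factor PU.1 (CTTCCT on the other strand) or to the C/EBP pattern TTNNGNAA and its reverse complement.
Fcer1g, chr1:171234300-171234599, minus strand: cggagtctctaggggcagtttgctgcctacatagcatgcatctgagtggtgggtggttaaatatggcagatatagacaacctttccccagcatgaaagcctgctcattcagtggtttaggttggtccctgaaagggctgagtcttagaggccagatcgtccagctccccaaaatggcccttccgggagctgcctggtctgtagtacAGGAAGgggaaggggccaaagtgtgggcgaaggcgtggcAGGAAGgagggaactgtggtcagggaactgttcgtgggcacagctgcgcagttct
C1qb, chr4:136886151-136886450, minus strand: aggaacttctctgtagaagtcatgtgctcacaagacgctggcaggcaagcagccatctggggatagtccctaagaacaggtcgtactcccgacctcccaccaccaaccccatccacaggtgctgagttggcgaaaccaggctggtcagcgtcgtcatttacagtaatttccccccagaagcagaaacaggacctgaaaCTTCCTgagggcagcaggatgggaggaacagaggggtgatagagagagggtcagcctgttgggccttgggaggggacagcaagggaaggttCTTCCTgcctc
S100a8, chr3:90668821-90669120, plus strand: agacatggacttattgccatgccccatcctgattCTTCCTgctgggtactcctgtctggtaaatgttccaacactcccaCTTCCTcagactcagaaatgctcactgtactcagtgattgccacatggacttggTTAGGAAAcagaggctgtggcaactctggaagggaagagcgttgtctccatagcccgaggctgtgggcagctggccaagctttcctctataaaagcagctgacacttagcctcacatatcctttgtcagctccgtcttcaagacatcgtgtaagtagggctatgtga
S100a9, chr3:90695672-90695971, minus strand: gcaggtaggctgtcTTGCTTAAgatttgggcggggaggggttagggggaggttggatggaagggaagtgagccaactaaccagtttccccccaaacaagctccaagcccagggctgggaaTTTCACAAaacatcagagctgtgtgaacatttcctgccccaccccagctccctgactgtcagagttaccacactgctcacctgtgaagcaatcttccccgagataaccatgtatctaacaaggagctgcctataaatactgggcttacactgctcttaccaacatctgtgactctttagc
The windows of Fcer1g and C1qb each held 2 PU.1 cores and no C/EBP match, that of S100a8 held 2 PU.1 cores and 1 C/EBP match, and that of S100a9 held 2 C/EBP matches and no PU.1 core. Of all 32851 RefSeq windows of 300 bases, 35.4% held the PU.1 core and 40.7% the C/EBP pattern. Of the 20 genes with the largest increase in members, 13 matched a window, and each motif was in 10 of their 15 windows. The matches are letters in a window and no measure of binding.

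In the GRCm38 annotation (GENCODE vM21) Tyrobp lies at chr7:30413760-30417585 and Fcer1g at chr1:171229572-171234365. C1qa, C1qc and C1qb are neighbours on chromosome 4 at chr4:136895917-136898803, chr4:136889804-136893065 and chr4:136880129-136886187. S100a8 and S100a9 are neighbours on chromosome 3 at chr3:90668978-90670035 and chr3:90692632-90695721. All 7 are protein-coding, and the counted reads come from the 3′ ends of their transcripts.

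The E12.5 libraries kept 648 and 684 cells and held no member, which allows a share of up to 0.463% and 0.439% (3 counts of the total). Among all kept E12.5 cells there were 0 UMIs of Tyrobp in either library, 0 and 1 UMI of Fcer1g, 2 and 1 of C1qb, and 0 and 1 of S100a8. With 2 libraries against 2, an exact permutation test cannot go below p = 0.333, so the ages were not tested, and age cannot be told apart from library or sort. Other kept cells at E14.5 numbered 1524 and 2968. Members had medians of 25132 and 21982 UMIs and 4265 and 4370 genes, against 19290 and 18261.5 UMIs and 4585 and 4527 genes in the other kept cells. Their median mitochondrial share was 3.76% and 3.77%, against 4.002% and 4.218%. Summed over cells, members gave 1221057 and 1914921 UMIs, which is 3.09% and 2.62% of the UMIs of kept cells. The 2 E14.5 libraries shared 1 barcode, and no member barcode occurred in more than 1 library.

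A gap in both gate genes separated members from other kept cells. Members held 8 to 119 UMIs of Tyrobp in replicate 1 (median 59) and 12 to 152 in replicate 2 (median 53). Their Fcer1g UMIs ran from 9 to 142 (median 67) and from 7 to 160 (median 61). Among the other kept cells no cell held a UMI of both genes, the highest Tyrobp count was 1 and 2, and the highest Fcer1g count was 4 and 2. A single gate gene reached 2 UMIs in 1 and 4 of the other kept cells. A UMI of Tyrobp was found in 0.984% and 1.04% of the other kept cells. These values chose the members and are given as a description.

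**Figure D1:**
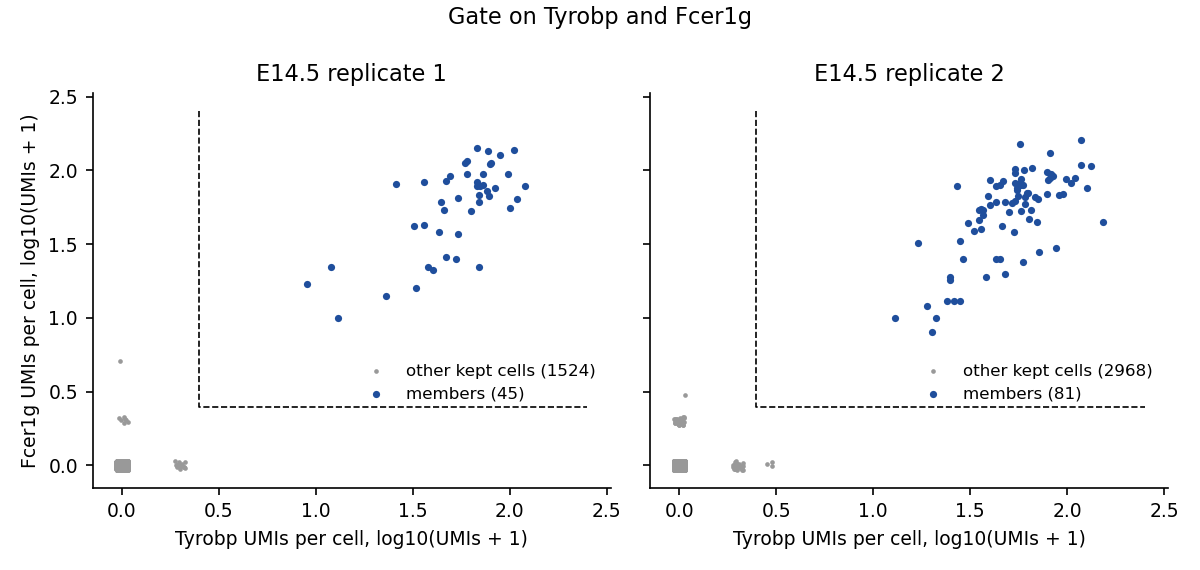
UMIs of Tyrobp (x axis) and Fcer1g (y axis) per kept cell in each E14.5 library, both as log10(UMIs + 1), with a small random shift for the other kept cells; the dashed line marks the gate of 2 UMIs of each gene. The 45 and 81 members stand clear of the 1524 and 2968 other kept cells, none of which has a UMI of both genes.

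Transcript levels below are CPM, the UMIs of a gene per 1000000 UMIs of a sum over cells, and ratios are log2 of (CPM in members + 1) over (CPM in other kept cells + 1) within a library. Because the members were chosen by transcripts of these same cells, no test was made of members against other cells. A gene was called when it was at least 4-fold higher, or at least 4-fold lower, in both libraries. Of the 8624 genes whose values averaged at least 10 CPM in each library, 566 were at least 4-fold higher in members (6.56%) and 727 at least 4-fold lower (8.43%), with a median log2 ratio of -0.38 and -0.39. Most genes of the myeloid lists passed the 10 CPM minimum through the members alone, so their counts below describe the members and are no support for the label.

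C1q transcripts and S100a8 and S100a9 transcripts split the members almost without overlap. With 2 UMIs as the minimum for each set, 36 of 45 and 66 of 81 members held C1qa, C1qb or C1qc transcripts and not S100a8 or S100a9 (80% with an exact interval of 65.4% to 90.4%, and 81.5% with 71.3% to 89.2%). These cells, called C1q-only here, held 8 to 397 C1q UMIs in replicate 1 (median 226.5) and 20 to 462 in replicate 2 (median 190.5). The reverse class, called S100-only, held 6 and 12 members (13.3% with 5.05% to 26.8%, and 14.8% with 7.90% to 24.4%) with at most 1 C1q UMI. Both sets were present in 1 and 1 member, which held 65 and 129 C1q UMIs beside 6 and 3 of S100a8 and none of S100a9, and neither set in 2 and 2. At least 1 C1q UMI was found in 1.38% and 1.68% of the other kept cells, with a highest count of 1 and 2, and at least 1 UMI of S100a8 or S100a9 in 1.31% and 0.708%, with a highest count of 3 and 1.

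**Figure D2:**
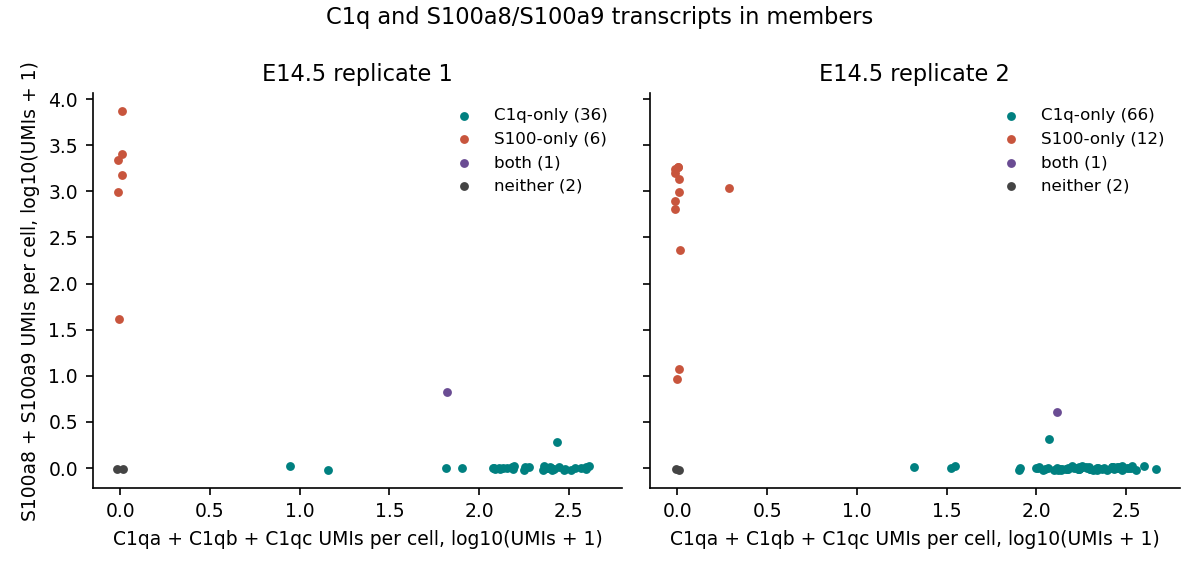
UMIs of C1qa, C1qb and C1qc together (x axis) and of S100a8 and S100a9 together (y axis) per member in each E14.5 library, both as log10(UMIs + 1) with a small random shift, coloured by class. The 36 and 66 C1q-only cells lie along the x axis and the 6 and 12 S100-only cells along the y axis, where 1 and 2 cells with 42, 8 and 11 S100 UMIs sit apart from the rest.

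Macrophage genes were present in most members: 39 of 45 and 69 of 81 held at least 10 UMIs over the macrophage list. Of its 18 genes tested, 16 were at least 4-fold higher, 1 was at least 4-fold lower and 1 was neither, with a median log2 ratio of 7.56 and 7.91. C1qb reached 2260.3 and 2387 CPM in members against 0.314 and 0.393 in the other kept cells (log2 ratio 10.75 and 10.74). C1qa and C1qc, the other chains of C1q, reached 1969.6 and 2403 CPM and 1984 and 2196 CPM. Each of the 3 C1q genes had a UMI in all 36 and 66 C1q-only cells, and C1qb UMIs per C1q-only cell had a minimum, median and maximum of 4, 72.5 and 142 in replicate 1 and 9, 66 and 148 in replicate 2.

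The receptors that mark tissue macrophages followed the same cells. Csf1r, the receptor for the macrophage growth factors CSF1 and IL-34, was at 504 and 589 CPM in members against 0.0261 and 0.112 in the other kept cells. It had a UMI in 34 and 66 C1q-only cells, with a median of 615 and 676 CPM per cell. Cx3cr1, the fractalkine receptor, was at 534 and 594 CPM in members and had a UMI in 35 and 64 C1q-only cells and in none of the S100-only cells. Mrc1, the mannose receptor CD206, was at 560.2 and 679.9 CPM, and Stab1, the scavenger receptor stabilin-1, at 514 and 629 CPM. Adgre1, which encodes the antigen F4/80, was at 247 and 238 CPM, with 0 and 9 UMIs over all other kept cells. The gene of the list that was lower was Cbr2, a carbonyl reductase, at 11.5 and 3.13 CPM in members against 70.1 and 18.8 in the other kept cells.

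The microglia list, genes that in adult brain set resident macrophages apart, had 5 of 6 tested genes at least 4-fold higher. Fcrls, an Fc receptor-like gene, was at 620.0 and 583 CPM, Gpr34 at 156 and 147 CPM, and P2ry12, a receptor for nucleotides, at 91.7 and 112 CPM. Sall1, a factor that defines microglia, had 8 UMIs over the C1q-only cells of replicate 1 and 0 over those of replicate 2.

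C1q-only cells were not uniform in the chemokine gene Pf4. Pf4 UMIs per C1q-only cell had a minimum, median and maximum of 0, 16.5 and 213 in replicate 1 and 0, 21.5 and 268 in replicate 2. After the data had been seen, the C1q-only cells of each library were divided at their median Pf4 level, 778 and 1009 CPM, into an upper range of 18 and 33 cells and a lower range of 18 and 33 cells. These are ranges of a level and not cell types. Of 6959 genes tested between them, 16 were at least 4-fold higher in the upper range in both libraries (0.23%) and 4 at least 4-fold lower (0.0575%). Pf4 itself set the division. The higher genes included Col1a1, Col1a2 and Col3a1, collagen genes of mesenchyme, and Hba-a1, a haemoglobin gene. The mesenchyme list summed to 555 and 161 CPM in the upper range and 12.2 and 21.6 CPM in the lower range. The erythroid list summed to 78.4 and 14548 CPM against 8.13 and 1302 CPM. Much of this lay in few C1q-only cells: 1 of replicate 1 held 275 mesenchyme UMIs, 1 of replicate 2 held 63, and another of replicate 2 held 12334 erythroid UMIs. Without the C1q-only cells that held at least 50 UMIs of another type's list, a setting added after the data had been seen, 16 and 29 cells stayed in the upper range and 17 and 30 in the lower range. Of 6710 genes then tested, 6 were at least 4-fold higher and 7 at least 4-fold lower, with 5 and 3 called in both settings. The collagen genes and Hba-a1 fell below the minimum of 10 CPM.

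Lyve1, F13a1 and Clec10a were among the 16 genes higher in the upper range by Pf4. Lyve1, a hyaluronan receptor, was at 172 and 504 CPM in the upper range and 10.2 and 29.2 in the lower range. F13a1, the coagulation factor XIII A chain, was at 639 and 563 CPM in the upper range and 146 and 139.6 in the lower range. Clec10a, a lectin for galactose sugars, was at 178 and 177 CPM in the upper range and 22.4 and 38.1 in the lower range. Without the cells holding another type's UMIs, Lyve1 and Clec10a were still past 4-fold in both libraries. F13a1 was then at 739 and 601 CPM in the upper range and 156 and 149.6 in the lower range, just short of 4-fold in replicate 2. Mrc1 was at 870.3 and 1114 CPM in the upper range and 482 and 447 in the lower range, a log2 difference of 0.85 and 1.32 that did not reach 4-fold. Ccl2, a monocyte attractant, was at 1392 and 1232 CPM in the upper range and 539 and 459 in the lower range, also under 4-fold.

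P2ry12 and Apoe were higher in the lower range by Pf4. P2ry12 was at 66.6 and 80.9 CPM in the upper range and 157 and 184 in the lower range, and Apoe, the lipid carrier apolipoprotein E, at 8997 and 9955 CPM in the upper range and 14421 and 16647.5 in the lower range. These differences pointed the same way in both libraries and did not reach 4-fold. Cxcl10, an interferon-induced chemokine, was at least 4-fold lower in the upper range in both libraries, at 0 and 19.9 CPM in the upper range and 185 and 189 in the lower range. Spp1, which encodes osteopontin, was at 90.2 and 44.5 CPM in the upper range and 264 and 1214 in the lower range, and its difference was far larger in replicate 2. C1qb was at 2262 and 2274 CPM in the upper range and 3196 and 3248 in the lower range, and Csf1r at 561 and 713 CPM in the upper range and 636 and 627 in the lower range.

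Across single C1q-only cells, Spearman's rho of a gene's CPM with Pf4 was, as a description over 36 and 66 cells that share a library, 0.77 and 0.66 for F13a1, 0.54 and 0.73 for Mrc1, and 0.36 and 0.69 for Lyve1. Cx3cr1 gave -0.34 and -0.11, and Fcrls -0.39 and 0.00481. Hspa1a and Hspa1b, heat-shock genes of near-identical sequence whose counts the counting may split, were also at least 4-fold higher in the upper range, with and without those cells, with Hspa1b at 190.1 and 116 CPM in the upper range and 0 and 22.8 in the lower range. Median UMIs per cell were 25182 and 24655 in the upper range and 25184 and 21500 in the lower range. The part of handling stress in the split was not tested.

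**Figure D3:**
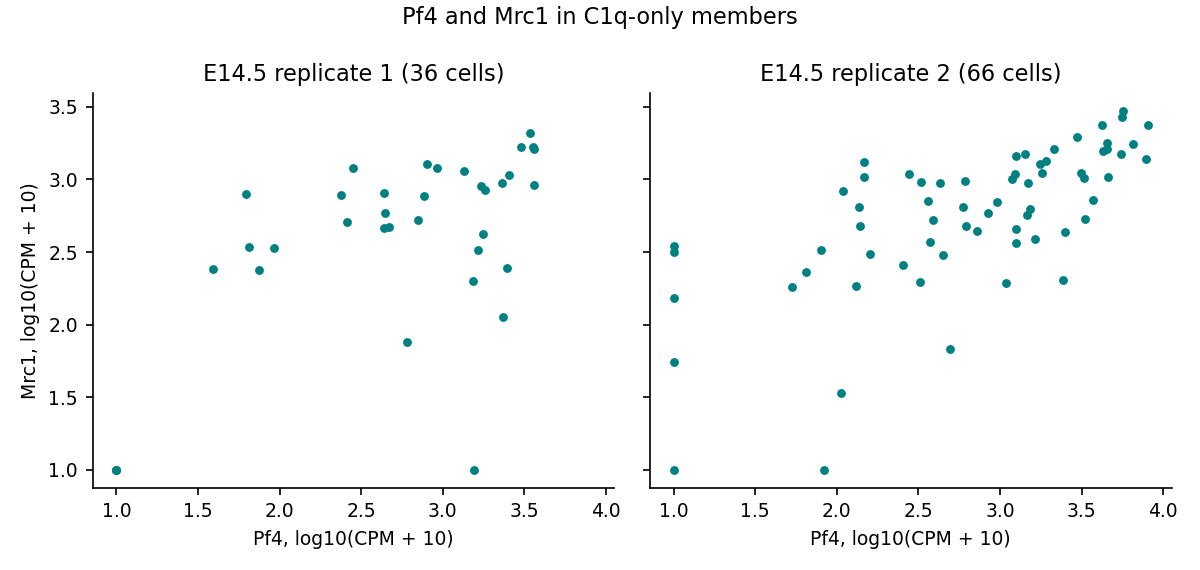
Pf4 (x axis) and Mrc1 (y axis) per C1q-only member in each E14.5 library, both as log10(CPM + 10). Mrc1 is higher in cells with more Pf4, with Spearman's rho of 0.54 over 36 cells and 0.73 over 66 cells; points at 1 on an axis are cells with 0 UMIs of that gene.

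The granulocyte transcripts sat in few cells. S100a8 was at 5989.9 and 3468 CPM in members against 0.261 and 0.126 in the other kept cells, and S100a9 at 5941 and 2880.0 CPM in members against 0.340 and 0.168 in the other kept cells, yet a UMI of S100a8 was found in 7 of 45 and 13 of 81 members. Of the granulocyte list 8 of 9 tested genes were at least 4-fold higher in members, and 1 list gene, Ctsg, had no UMI in members. The S100-only cells themselves fell apart at about 100 S100 UMIs, a split made after the data had been seen. Above it lay 5 and 10 cells with 1030 to 7031 and 232 to 1884 UMIs of S100a8 and S100a9, and below it 1 and 2 cells with 42, 8 and 11, none of them from S100a9.

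In the 5 and 10 cells above the split, S100a8 and S100a9 took 21.9% to 37.9% of all UMIs of a cell in replicate 1 (median 28.0%) and 4.59% to 32.2% in replicate 2 (median 24.5%). A cell of replicate 2 held 659 UMIs of S100a8 and 3 of S100a9, while the other cells above the split held more than 100 UMIs of each gene. The stefin-family gene BC100530, a protease inhibitor that near-identical copies may share reads with, stood at a median of 45428 and 40753 CPM per cell. Retnlg, the neutrophil resistin-like protein, had a UMI in 5 and 9 of these cells and a median of 15439 and 6605 CPM. Mmp9, the granule gelatinase, had a UMI in 5 and 10, and Cxcr2, the receptor that draws neutrophils to chemokines, in 5 and 8. Lyz2, lysozyme, was at a median of 14252 and 6352 CPM, against 509.7 and 683 CPM in C1q-only cells.

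These cells were small in transcript content. Median UMIs were 6927 and 4676.5, and 4 of 5 and 9 of 10 had under 2000 genes, near the minimum of 1000 used to keep a barcode. Their median mitochondrial share was 0.606% and 0.712%. The minimum on genes bears on their number: with at least 2000 genes S100-only cells were a mean of 4.71% of members rather than 14.1%, and 1 removed barcode of replicate 1 with 890 genes passed the gate with 621 S100 UMIs. Shares of S100-only cells are thus counts of what that minimum left.

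In replicate 1, Ngp and Camp, genes of the secondary granules of immature neutrophils, were concentrated in 1 cell. That cell of 25132 UMIs held 823 UMIs of Ngp, 995 of Camp, 335 of Lcn2 and 64 of Ltf, with 7 UMIs of the proliferation gene Mki67 and 428 over the list of G2 and M phase genes. The other 4 cells of replicate 1 above the split held 0 to 11 UMIs of Ngp and 0 to 101 of Camp. Over all members Ngp was at 689.6 and 32.9 CPM and Camp at 899 and 96.6 CPM, and that cell held 823 of the 842 Ngp UMIs and 995 of the 1098 Camp UMIs of the S100-only cells of replicate 1. Lcn2 was in 4 of the 5 cells. In replicate 2, 6 of the 10 cells above the split held Lcn2, at 5 to 98 UMIs, and 4 held Camp, at 1 to 146 UMIs. The cell with the most Ngp there held 56 UMIs of it and 146 of Camp, and it also held 41066 UMIs in all, 7 of the reporter Egfp and 55 over the epithelium list. It carried 49.1% of the UMIs of the 10 cells, and whether it is more than 1 cell was not tested.

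The 3 S100-only cells below the split carried Ccr2. Ccr2, the receptor for CCL2 that marks monocytes leaving the blood-forming organs, had 35, 19 and 14 UMIs in them, with 0, 15 and 71 UMIs of Ly6c2, a Ly6C gene with close copies. Lyz2 was at 15808 and 17442 CPM per cell, above its level in C1q-only cells. Their list of G2 and M phase genes held 213, 169 and 843 UMIs. The summed monocyte list was not highest in them. It held 70 UMIs in the cell of replicate 1 and 124 and 150 in those of replicate 2, against 418 and 218 in the 2 members with both C1q and S100 transcripts and 244 in 1 C1q-only cell of replicate 2, all 3 with 0 UMIs of Ccr2. A member without C1q or S100 transcripts, in replicate 1, also held 11 UMIs of Ccr2 and 5 of Ly6c2. Ccr2 was also seen in C1q-only cells of replicate 1, for example at 3, 3 and 2 UMIs. In the monocyte list 4 of 5 tested genes were at least 4-fold higher in members, led by Ms4a6c at 399 and 422 CPM and Cd14, a co-receptor for bacterial lipopolysaccharide, at 285 and 312 CPM. Ms4a6c and Cd14 were not limited to the 3 S100-only cells below the split: they had a UMI in 34 and 62 and in 29 and 51 C1q-only cells.

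The remaining 3 members, 1 in replicate 1 and 2 in replicate 2, carried genes of mast cells and basophils. Cpa3, the mast cell carboxypeptidase, had 207 UMIs in the cell of replicate 1 and 179 and 12 in those of replicate 2. In the same order Cma1, mast cell chymase, had 100, 88 and 0 UMIs, Hdc, which makes histamine, had 55, 56 and 16, and Kit, the receptor of mast cell progenitors, 28, 19 and 0. Those of replicate 2 also held 9 and 7 UMIs of Ccr2. Over members Cpa3 was at 169.5 and 99.7 CPM, with 0 UMIs in the other kept cells of either library, which against 3 counts makes it at least 2162-fold and 2371-fold higher. Of the mast cell and basophil list 3 of 5 tested genes were at least 4-fold higher, and Fcer1a had no UMI in members. The cell of replicate 1 held 79417 UMIs and 946 over the list of G2 and M phase genes, the most UMIs of any member apart from 1 C1q-only cell of replicate 2.

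**Figure D4:**
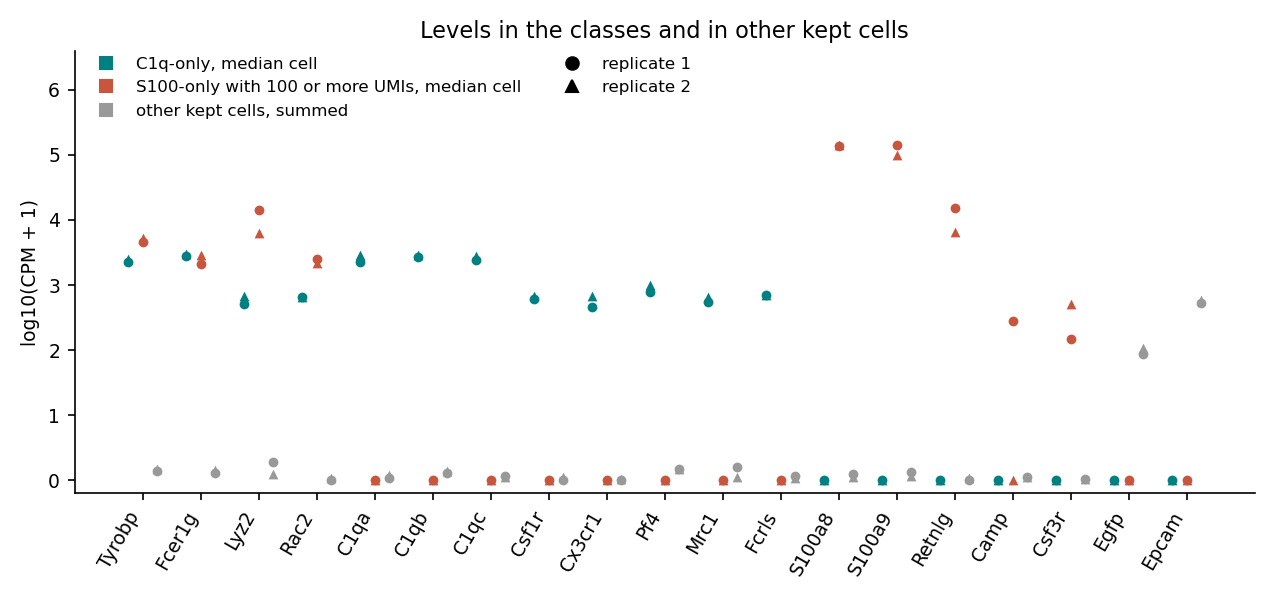
log10(CPM + 1) of 19 genes in the median C1q-only cell, the median S100-only cell with at least 100 S100 UMIs, and the summed other kept cells of replicate 1 (circles) and replicate 2 (triangles). Tyrobp, Fcer1g, Lyz2 and Rac2 are high in both classes, and the C1q genes to Fcrls in C1q-only cells. S100a8 to Csf3r are high in S100-only cells, apart from Camp in replicate 2, which most of the S100-only cells shown there lacked. Egfp and Epcam are high in the other kept cells.

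Summed over all S100-only cells, the genes with the largest ratio toward C1q-only cells were C1qa, C1qb, C1qc, Pf4, Fcrls, Cx3cr1, Gas6, Ccl12, Ccl7 and Igf1, and toward S100-only cells S100a8, S100a9, BC100530, Retnlg, Camp, Ngp, Lcn2, Stfa2, Stfa2l1 and Wfdc21. All classes were cut on transcripts of these cells, so the ratios are descriptions. Gas6, which bridges dying cells to the receptor Mertk, was at 415 and 541 CPM in C1q-only cells and had 0 UMIs in S100-only cells. Igf1, insulin-like growth factor 1, was at 187 and 289 CPM against 0 UMIs. Of 7678 genes averaging at least 10 CPM, 360 were at least 4-fold higher in C1q-only cells in both libraries (4.69%) and 234 at least 4-fold lower (3.05%). The S100-only sums are thin, with 1 UMI worth 13.2 and 5.71 CPM, and 1 and 2 cells below the split supplied 25303 of 75899 and 91720 of 175275 UMIs. With a minimum of 10 CPM in each library the counts were 288 and 201 of 6391 genes, and with the cells above the split alone 650 and 275 of 5952 genes. Leaving out the cell of most UMIs in each library as well gave 2076 and 395 of 5529 genes, with 1 UMI then worth 39.3 and 23.5 CPM. The 20 genes named here were past 4-fold in all these settings, but they had been picked as the largest ratios in these same cells. The settings are subsets of those cells, so the result lends the genes no support. With a pseudocount of 1 CPM, 1 UMI in the S100-only sum of the last setting already passes 4-fold against 0 UMIs in C1q-only cells. In the other direction, a gene with 0 UMIs in that sum passes 4-fold once it meets the minimum of 10 CPM. How many of the 2076 genes were of this kind was not counted.

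Both gate genes are present in every class by the rule that chose the members, so their levels in the classes are given as a description. In C1q-only cells the median was 2238 and 2496 CPM of Tyrobp and 2811 and 2955 CPM of Fcer1g, and in S100-only cells above the split 4513 and 5237 CPM and 2115 and 2922 CPM. The partner receptors differed. Trem2, a lipid receptor that signals through DAP12, had a UMI in 36 and 65 C1q-only cells and in 0 and 1 of the 5 and 10 S100-only cells above the split. Trem1, its relative on neutrophils and monocytes, had a UMI in 0 and 1 C1q-only cells and in 2 and 8 of those S100-only cells. Fcgr1, the high-affinity receptor for IgG, had a UMI in 34 and 63 C1q-only cells and in none of those S100-only cells, whereas Fcgr3, a low-affinity receptor, had one in 36 and 66 and in 5 and 9. The S100-only cells above the split had fewer UMIs, so the lack of a UMI says less there than in a C1q-only cell.

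All 8 tested genes of the list of ITAM adaptors and their receptors, the 2 gate genes included, were at least 4-fold higher in members, with Trem2 at 483 and 545 CPM and Fcgr3 at 447 and 525 CPM. Downstream of the adaptors, 12 of 14 tested genes of the ITAM signalling list were at least 4-fold higher, with a median log2 ratio of 4.84 and 4.61. Lyn, the kinase that phosphorylates the motif, was at 208 and 214 CPM in members against 4.71 and 4.80 in the other kept cells. Ptpn6, the phosphatase SHP-1 that restrains it, was at 142 and 146 CPM in members against 8.65 and 8.74 in the other kept cells, Lcp2, the scaffold SLP-76, at 85.2 and 88.8 CPM, and Inpp5d, the lipid phosphatase SHIP1, at 70.4 and 71.5 CPM. The NADPH oxidase, which makes superoxide in phagocytes, had 6 of 7 tested genes at least 4-fold higher: its membrane subunits Cyba and Cybb were at 1346 and 1464 CPM and 162 and 182 CPM, the cytosolic subunit Ncf4 at 169 and 152 CPM and its GTPase Rac2 at 683 and 694 CPM. Rac1, the broadly used relative of Rac2, was the exception, at 354 and 343 CPM in members against 130.0 and 125 in the other kept cells. Rac2 was higher per cell in S100-only cells above the split, with a median of 2524 and 2206 CPM against 645 and 658 CPM in C1q-only cells.

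Beside C1q, the complement list held receptors and regulators. Of its tested genes 8 of 9 were at least 4-fold higher. C3ar1 and C5ar1, the receptors for the fragments C3a and C5a, were at 227 and 216 CPM and 173 and 181 CPM, with at most 3 UMIs of either over all other kept cells of a library. Itgam, a chain of complement receptor 3, had a UMI in 15 and 33 C1q-only cells and in 4 and 8 of the S100-only cells above the split. C1s1, which encodes a protease that pairs with C1q, and Cfi had no UMI in members.

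Chemokine genes were abundant. All 18 tested genes of the list of chemokines and cytokines were at least 4-fold higher in members, with a median log2 ratio of 6.88 and 6.81. Pf4, platelet factor 4, was at 1126 and 1489.9 CPM in members against 0.471 and 0.519 in the other kept cells, and its transcripts were in 33 and 61 C1q-only cells and in no S100-only cell. Ccl3 and Ccl4, inflammatory chemokines, were at 897 and 751 CPM and 957 and 751 CPM, and Ccl2 at 809 and 745 CPM. Cxcl2, a neutrophil attractant, was at 305 and 546 CPM. Ccl3 had a UMI in 27 and 51 C1q-only cells, Ccl4 in 22 and 37 and Ccl2 in 23 and 50. Il1b, an inflammatory cytokine, had a UMI in 5 and 11 C1q-only cells and in 4 and 7 of the S100-only cells above the split. Of the receptors for such signals 14 of 18 tested genes were at least 4-fold higher, led by Cx3cr1 and Csf1r and followed by Ifngr1, the interferon gamma receptor chain, at 186 and 254 CPM. Csf3r, the receptor for the granulocyte growth factor G-CSF, had a UMI in 9 and 24 C1q-only cells and in 5 and 6 of the S100-only cells above the split.

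Growth factor genes went both ways. Of 12 tested genes 5 were at least 4-fold higher in members and 3 at least 4-fold lower, with a median log2 ratio of 0.53 and 1.07. Those higher were Igf1 at 157 and 248 CPM, Grn, progranulin, at 542 and 676 CPM, Tgfb1 at 207 and 196 CPM, Pdgfb and Gdf15. Those lower were Pdgfa, Pdgfc and Vegfa. Vegfb was at 49.1 and 61.1 CPM in members against 56.6 and 56.9 in the other kept cells.

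Genes of uptake and digestion followed. Of the list of scavenger receptors and uptake of dying cells 13 of 17 tested genes were at least 4-fold higher, with Lgals3, galectin-3, at 311 and 339 CPM and Abca1, a cholesterol exporter, at 249.8 and 316 CPM. Of the lysosome list 20 of 25 were at least 4-fold higher, with a median log2 ratio of 3.47 and 3.55. The protease Ctsb was at 2404 and 2655 CPM in members against 76.6 and 75.6 in the other kept cells, and Ctsd at 1155 and 1388 CPM in members against 54.1 and 63.6 in the other kept cells. Lgmn, the asparaginyl protease legumain, was at 1246 and 1162 CPM in members against 47.1 and 47.8 in the other kept cells. Ctss, a protease of antigen-processing cells, was at 597 and 557 CPM with 4 and 5 UMIs over all other kept cells. Ctss had a UMI in 35 and 66 C1q-only cells and in none of the S100-only cells above the split, whereas Ctsd had one in 36 and 66 and in 5 and 8.

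Genes of iron and lipid handling were among the abundant transcripts of members. Ftl1 and Fth1, the ferritin chains that store iron, were at 13451 and 14968 CPM in members against 2447 and 2492 in the other kept cells and at 7497 and 7832 CPM in members against 1394 and 1381 in the other kept cells, in that order. The median C1q-only cell held 15220.2 and 14640 CPM of Ftl1 and the median S100-only cell above the split 4331 and 3826 CPM. Hmox1, haem oxygenase, was at 955 and 1883 CPM in members against 9.25 and 8.43 in the other kept cells. Iron and haem genes were at least 4-fold higher for 8 of 10 tested genes. Apoe was at 9586 and 11340.4 CPM in members against 68.4 and 111 in the other kept cells, and it had a UMI in all 36 and 66 C1q-only cells but in 1 and 2 of the 5 and 10 S100-only cells above the split. Of the lipid list 6 of 11 tested genes were at least 4-fold higher, and Fabp5, a fatty-acid binding protein, was not, at 476 and 755 CPM in members against 778 and 664 in the other kept cells.

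Among haematopoietic transcription factors, 10 of 21 tested genes were at least 4-fold higher. Spi1, which encodes PU.1, was at 417 and 389 CPM in members against 0 and 0.0701 in the other kept cells and had a UMI in all C1q-only cells and all S100-only cells above the split. Maf, a macrophage factor, was at 568 and 559 CPM in members against 19.9 and 30.3 in the other kept cells. Cebpb, a C/EBP family factor, was at 640.4 and 774 CPM in members against 179.6 and 95.8 in the other kept cells, with log2 ratios of 1.83 and 3.00 that reached 4-fold in replicate 2 alone. Cebpe, the C/EBP factor of late granulocyte development, had a UMI in 5 and 5 of the S100-only cells above the split and in no C1q-only cell. Of the actin regulators of blood cells 14 of 16 were at least 4-fold higher, with Tmsb4x, thymosin beta-4, at 36675 and 35932 CPM in members against 6932 and 7239.5 in the other kept cells and Coro1a, coronin, at 638 and 518 CPM in members against 23.3 and 19.2 in the other kept cells. Of the integrin and adhesion list 9 of 12 were at least 4-fold higher; Fermt3, the blood cell activator of integrins, was at 147 and 139 CPM, and Itgb1, a chain used by most cells, at 165 and 209.9 CPM in members against 118 and 116 in the other kept cells. Of the interferon response list 5 of 9 were at least 4-fold higher, and these were Ifi204, Bst2 and the antigen-presentation genes B2m, H2-K1 and H2-D1.

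No tested cell cycle gene was called in either direction. None of 40 tested S phase genes and none of 51 tested G2 and M phase genes reached 4-fold in either direction in both libraries, and the median log2 ratios were 0.11 and 0.23 and 0.11 and -0.34. Mki67 was at 106 and 85.1 CPM in members against 70.8 and 67.7 in the other kept cells. After every cell had been thinned to 5000 UMIs, which left out 1 and 9 members and 18 and 32 other kept cells, a Mki67 UMI was found in 25% and 25% of members and in 17.3% and 17.5% of other kept cells (unthinned 35.6% and 32.1%, against 31.2% and 31.0%). Of the members left out, 1 and 7 were S100-only cells, so the thinned shares cover fewer of that class. G2 and M phase genes took at least 1% of the UMIs of 6 of 36 and 7 of 66 C1q-only cells, or 16.7% and 10.6%, and of 15.2% and 15.7% of the other kept cells. Genes that respond to tissue dissociation were at least 4-fold higher for 5 of 17, namely Atf3, Ier3, Zfp36, Hspa1a and Hspa1b, while Fos was at 1341 and 1228 CPM in members against 725 and 806 in the other kept cells; the part of dissociation in the levels of these and of the chemokine genes was not tested.

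The reporter and Sox2 were low in members. Egfp, the transcript of the reporter, had a UMI in 1 of 45 and 3 of 81 members (2.22% and 3.70%), against 34.7% and 40.0% of the other kept cells. At 5000 UMIs per cell, with the same cells left out, most of the members among them S100-only, the shares were 0% of 44 and 1.39% of 72 members against 24.4% and 29.6%. A count of 0 of 44 allows a share of up to 6.82%. The 3 members with Egfp in replicate 2 held 7, 5 and 4 UMIs of it, and these 3 also carried at least 50 UMIs of epithelium, neuron or glia genes. Sox2 was at 4.09 and 5.22 CPM in members against 123 and 160.1 in the other kept cells.

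All 7 genes of the epithelium list were at least 4-fold lower, with Epcam, an epithelial adhesion molecule, at 10.6 and 14.6 CPM in members against 521 and 597 in the other kept cells. Of the glia list 6 of 7 and of the neuron list 1 of 8 were at least 4-fold lower. The neuron list summed to 122 and 895 CPM in members. Without the members that held at least 50 UMIs of another type's list, it summed to 11.2 and 7.54 CPM. The other kept cells were a mixed pool. They held 2987 and 2546 CPM over the neuron list, 1087 and 1538 over the glia list and 1294 and 1685 over the epithelium list. The genes with the largest decrease were Oc90, the main otoconial protein, Lhx2, Gng13, Fstl5, Crabp1, Calb2, Rnf182, Epcam, Gng8 and Atf5. Which of the other kept cells carried these genes, and whether all are cochlear, was not tested. Oc90 was at 0 and 1.04 CPM in members against 205 and 471 in the other kept cells, and Lhx2, a developmental homeobox factor, at 1.64 and 1.57 CPM in members against 399 and 373 in the other kept cells. Calb2, the calcium buffer calretinin of neurons, was at 1.64 and 1.04 CPM in members against 145 and 105 in the other kept cells.

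**Figure D5:**
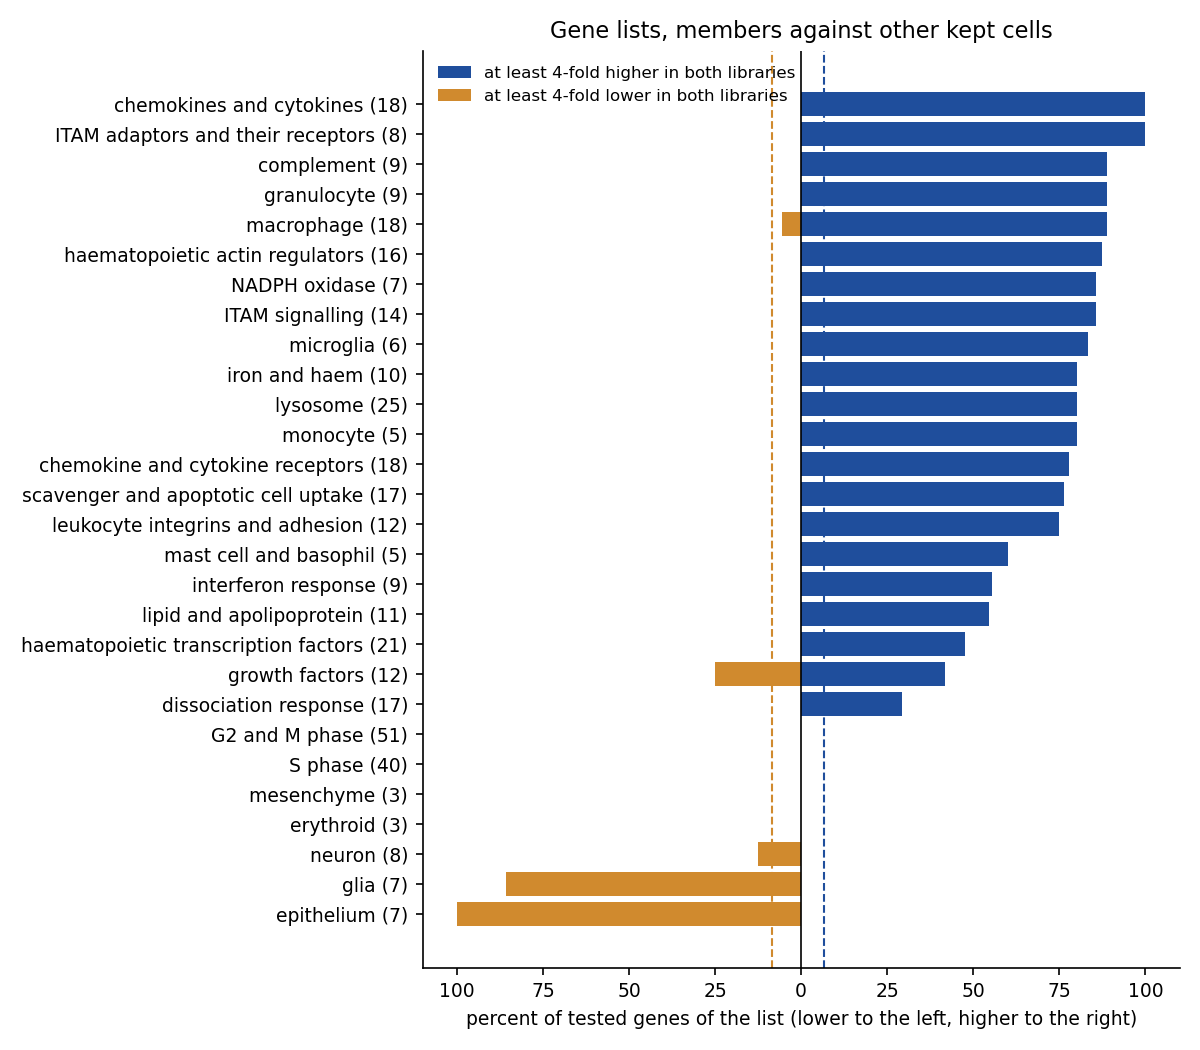
Share of the tested genes of each list (number in brackets) that was at least 4-fold higher (blue, to the right) or at least 4-fold lower (orange, to the left) in members in both E14.5 libraries; dashed lines mark the shares over all 8624 genes tested, 6.56% and 8.43%. The myeloid and phagocyte lists lie far right of the line, the 2 cell cycle lists at 0, and the epithelium and glia lists to the left.

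Some members also held transcripts of other cell types. In replicate 1, 3 members, and in replicate 2, 8 members held at least 50 UMIs over the neuron, glia, epithelium, mesenchyme, endothelium or erythroid list, and 10 of these 11 were C1q-only cells. The highest were 919 and 769 UMIs of neuron genes and 12334 and 938 of erythroid genes in 4 cells of replicate 2, and 275 of mesenchyme genes in a cell of replicate 1. Without the 8 cells the neuron list of replicate 2 went from 895 to 7.54 CPM and the erythroid list from 7019.6 to 68.5 CPM, and the number of members in replicate 2 from 81 to 73. The haemoglobin genes have close copies whose reads may be split. Whether these barcodes hold more than 1 cell was not tested, and no doublets had been removed.

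Markers of other blood cells were sparse. No gene of the natural killer and T cell, megakaryocyte and platelet, or dendritic cell and antigen presentation lists averaged 10 CPM in both libraries. Of the 9 natural killer and T cell genes in the files 7, among them Cd3e, Ncr1 and Klrb1c, had no UMI in members, and the summed list stood at 5.73 and 0.522 CPM. Cd74, the invariant chain of class II antigen presentation, was at 22.9 and 16.2 CPM, and H2-Aa and H2-Ab1 had no UMI. Itga2b and Ppbp, markers of platelets, were at 0 and 3.13 CPM and at 0.819 and 3.13 CPM beside 1126 and 1489.9 CPM of Pf4. Cd79b, a B cell receptor chain, was at 45.9 and 27.2 CPM in members against 0.392 and 0.182 in the other kept cells, while Cd79a, Vpreb3 and Pax5 had no UMI. Of the 2 tested genes of the B cell list, Cd79b was at least 4-fold higher in members and Ebf1 at least 4-fold lower. The summed list stood at 94.2 and 182 CPM in members against 750 and 670 in the other kept cells.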

How the data were processed

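Sorted cochlear cells were profiled in 4 libraries, 2 per age. The authors deposited raw UMI counts per gene and barcode for each library, made with Cell Ranger 3.0.0 against mm10 per the submitters' processing notes; how cells were called, and whether doublets were removed, is not given in the sources used here. The E14.5 matrices held 1705 and 3298 barcodes with 39903952 and 74034411 UMIs over 28002 features, of whose identifiers 99.0% were found in GENCODE vM21. Groups come from the sample titles.

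UMIs were summed per library over members and over other kept cells, since cells are not replicates, and scaled to CPM. A pseudocount of 1 CPM, a mean of at least 10 CPM in each library and a 4-fold limit were used, with no statistical test. The counting was run on simulated sums with planted changes larger than that limit. The simulation had no spread between cells, so it does not bear on calls that rest on few cells. Python 3.11.15, numpy 2.4.6, scipy 1.17.1 and pandas 2.3.3 were used. No doublets were removed.

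Named genes were the gate, C1q, S100, Egfp and Sox2 genes, the 20 largest increases and 10 largest decreases averaging at least 50 CPM, 10 genes per direction between classes, and the 5 most abundant members of each of 34 lists. Numbered gene models, ribosomal, mitochondrial, haemoglobin, Xist and Y-linked genes were not ranked. Other genes named were chosen after their values were seen. The members, lists and comparisons were chosen with earlier results of these data known. Thresholds, thinning and leaving out a replicate were varied as alternatives. Some genes are not reported here.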

Additional observations from a re-analysis of the deposited data

Results flagged for a closer look

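Barcodes that the filters removed also held gate transcripts. The 136 barcodes removed from E14.5 replicate 1 held 32 UMIs of Tyrobp and the 249 removed from E14.5 replicate 2 held 16, against 0 in the 46 and 53 barcodes removed from the E12.5 libraries. They were singled out because they lie outside the cells compared in the report. In each E14.5 library 2 removed barcodes passed the gate. In replicate 1 these had 471 and 890 genes, the second with 621 UMIs of S100a8 and S100a9. In replicate 2 both had 11.0% of their UMIs in mitochondrial genes, with 32 and 9 C1q UMIs.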

How the results depend on the processing

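No paired analysis was possible because the results come from no test; ratios of members to other kept cells were taken within each library, and the 2 ages were not compared by replicate number. The mean share of members over both E14.5 libraries was 2.76% as reported, 2.43% with at least 2000 genes, 3.12% with under 5% mitochondrial UMIs, 2.49% after thinning to 5000 UMIs and 2.54% without members holding 50 UMIs of another type's list, an alternative added after the data had been seen. A gate of 1 or of 4 UMIs left the same 45 and 81 members. In the first 3 of these settings, C1q-only cells were 89.3%, 77.7% and 90.3% of members, against 80.7%, and S100-only cells 4.71%, 16.2% and 6.31%, against 14.1%; with 1 UMI as the class minimum C1q-only cells were 79.0%. The log2 ratio of C1qb, 10.75, was 10.78 with at least 2000 genes, 10.64 with under 5% mitochondrial UMIs, 10.86 without the top 5% of UMIs, 10.31 thinned, 8.76 with a pseudocount of 5 CPM, 10.79 as a mean of CPM per cell, 10.74 without other cells holding a gate UMI and 10.85 without the members with another type's UMIs. Genes at least 4-fold lower, 727, were 432 with the pseudocount of 5, 1531 without the minimum, 159 with a minimum of 50 CPM, and 956 without replicate 1 and 1161 without replicate 2, each then a count over 1 library; genes at least 4-fold higher, 566, were 234 with a minimum of 50 CPM. Granulocyte list genes at least 4-fold higher, 8, were 5 with at least 2000 genes, 13 without the minimum and 4 with 50 CPM. Stricter minimums test fewer genes and keep fewer cells. Thinning set aside 1 and 9 members with under 5000 UMIs, of which 1 and 7 were S100-only cells. The gate and classes were then cut on thinned counts, which kept 41 and 70 members. The cause of the other shifts was not tested. Between the ranges by Pf4, 16 genes higher and 4 lower became 6 and 7 without C1q-only cells holding 50 UMIs of another type's list; between C1q-only and S100-only cells, at a minimum of 10 CPM in each library 288 higher and 201 lower became 650 and 275 with the cells above the split alone and 2076 and 395 without the cell of most UMIs as well, all added after the data had been seen. No direction of the other results reversed. At 13.2 CPM per UMI in the thinner S100-only sum, absence of a low gene there was not detectable.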
